A study of Mus musculus with 5 samples.

Results

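Aquaporins are the membrane channels through which water crosses cell membranes, and 5 of their genes were followed here, Aqp1, Aqp4, Aqp7, Aqp8 and Aqp11. They were taken by gene symbol from a deposited table of 40624 genes, and the set was selected on 1 measured value, the strong fall of Aqp4 in mutant against control atria. The table lists 12 aquaporin genes in all. All 5 members passed the filter on low counts, as did 1 further aquaporin, Aqp5, so that 6 of the 12 were among the 17835 genes tested. RNA was measured by polyA RNA sequencing in atrial tissue of C57BL/6 mice at postnatal day 1. The 3 control libraries (replicates 2, 4 and 6) had the genotype SLN-Cre with Nkx2-5-flox/+, and the 2 mutant libraries (replicates 5 and 7) had SLN-Cre with Nkx2-5-flox/flox. Values are given below in this order, replicates 2, 4 and 6 and then 5 and 7. Both groups thus carried the Cre recombinase and at least 1 floxed allele of Nkx2-5, a homeodomain transcription factor of heart muscle, and the controls are not unfloxed wild-type atria. Sln, whose name the Cre carries, encodes sarcolipin, a peptide of atrial myocytes, and a Cre expressed like Sln would leave the alleles of other atrial cell types intact.

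Each aquaporin subunit forms its own narrow pore across the membrane, and water moves through it along the osmotic gradient. Classical members such as Aqp1, Aqp4, Aqp5 and Aqp8 conduct mainly water, aquaglyceroporins such as Aqp3, Aqp7 and Aqp9 also conduct glycerol, and Aqp11 is a distant member found on intracellular membranes. In the heart, Aqp1 is best known from the endothelium of small vessels and from red blood cells. Aqp4 is known from the surface membrane of mouse cardiac and skeletal muscle and from the endfeet of brain astrocytes, where the dystrophin complex holds it in place. Aqp7 is known as the glycerol channel of fat cells and is also made in heart muscle.

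The libraries held 58.5 to 60.9 M gene counts in the controls and 69.6 and 78.8 M in the mutants. Nkx2-5 fell from 71.3 to 76.8 CPM (counts scaled to a common library size) in the controls to 5.79 and 5.21 CPM in the mutants (adjusted p = 7.0e-07, edgeR's quasi-likelihood test), so the libraries matched their labels. The atrial myocyte markers Myl7 and Myl4 were abundant in all 5 libraries, at 9949 to 11070 CPM and 7767 to 8416 CPM. Of the 10 atrial myocyte markers listed, edgeR called 0 higher and 1 lower, beside 3.02% and 3.57% of all tested genes. The other 9 did not pass, and the median log2 fold change of the 10 was 0.05. At an unadjusted p under 0.05 in edgeR, 2 of the 10 were higher and 1 lower. DESeq2 called 1 higher and 1 lower, and limma-voom called 0 higher and 1 lower. Myl2, a myosin light chain gene of ventricular muscle, stood at 8.26 to 22.3 CPM in 4 libraries and at 95.9 CPM in control 6. Nothing in the labels ties the libraries to separate animals, and the p-values below cover only library-to-library spread, which may be technical. In bulk tissue, fewer cells of a type and less RNA per cell cannot be told apart.

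Aqp4 (ENSMUSG00000024411; listed span on chromosome 18, 15551960 to 15562140, minus strand, mm9) was the member whose level chose the set. Its control levels were 12.3, 9.95 and 17.35 CPM, from 723, 592 and 1068 counts. Its mutant levels were 3.15 and 1.54 CPM, from 246 and 105 counts. The groups did not overlap: the lowest control, control 4, stood above the higher mutant, mutant 5. The control mean was 13.2 ± 3.79 CPM (SD, n = 3), the mutant mean 2.35 ± 1.14 CPM (SD, n = 2), and the fitted log2 fold change of mutant over control was -2.48 ± 0.41 (SE), a level 5.59-fold lower. Because this fall chose the gene, it is a description and no test is given. Of the 17835 tested genes, 52 (0.292%) had a log2 fold change at or below that of Aqp4. The authors' deposited table gives Aqp4 as 2.31 RPKM in the controls and 0.413 RPKM in the mutants, as 1 pooled value per group.

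Aqp4 also differed among libraries of 1 group. The controls spanned 1.74-fold and the mutants 2.05-fold, and mutant 7 lay below mutant 5. On the log2 CPM scale the SD of the 3 controls was 0.41, where the median SD over all tested genes was 0.10, and the 2 mutants differed by 1.03, where the median difference over all tested genes was 0.18. The log2 fold change was -3.10 without mutant 5 and -2.07 without mutant 7, and between -2.66 and -2.24 when 1 control was left out. Every one of these values lay below -2, whichever library was left out. An overlapping gene on the opposite strand, AC133525.2 in GENCODE vM21, shares 0 exonic bases with Aqp4.

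**Figure D1:**
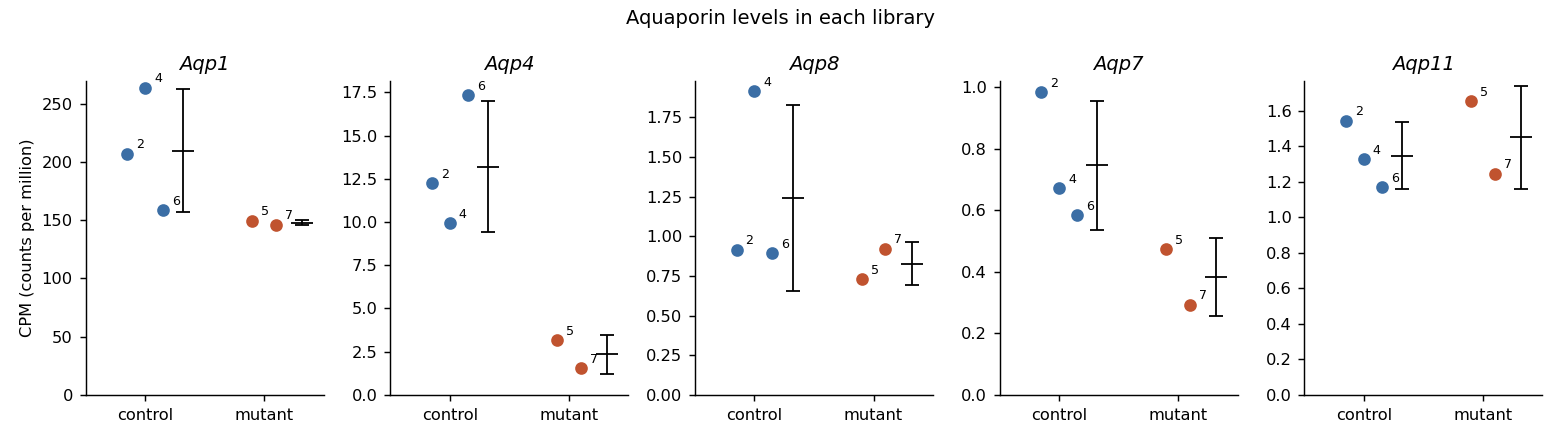
CPM of the 5 aquaporin genes in each library (numbers are replicates), with the group mean and SD as a black bar to the right of the points (n = 3 controls, n = 2 mutants); each panel has its own linear axis from 0. Controls and mutants stand apart for Aqp4, Aqp1 and Aqp7 and overlap for Aqp8 and Aqp11; for Aqp1 the lowest control (158.5 CPM) lies close to the mutants (146.2 and 149.5 CPM).

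Control 6, highest for Aqp4, was also highest for the ventricular markers Myl2, Myl3 and Irx4, but not for the rest of that list. Hey2 and Myh7 were highest in mutant 5 (36.4 and 2616 CPM), with control 6 highest among the controls. Lbh was lowest in control 6 (90.3 CPM). The list of 6 ventricular markers was split. Myl2 (-1.74 ± 1.17), Myl3 (-2.57 ± 0.47) and Irx4 (-1.49 ± 0.67) had negative log2 fold changes (SE) and were not called. Hey2, a transcriptional repressor gene, rose by 2.59 ± 0.10 and Lbh by 0.63 ± 0.08 on the same scale (adjusted p = 6.57e-06 and 0.00323, edgeR), and Myh7 did not pass (0.24 ± 0.11). In all, edgeR called 2 of the 6 as higher, beside 3.02% of all tested genes. It called 0 of the 6 as lower (1 at an unadjusted p under 0.05), while DESeq2 and limma-voom each called 1 lower, as did edgeR without control 4. The median of the 6 was negative (-0.63) while both calls were rises. The 6 summed to 2030 to 2604 CPM in the controls and 2464 and 2847 CPM in the mutants, most of it Myh7, and the part of this cell type in the level of Aqp4 was not tested. Without control 6 the log2 fold change of Aqp4 was -2.24. Aqp4 is also a glial gene, and 9 glial and Schwann cell markers summed to 22.3 to 25.4 CPM in control libraries and to 17.4 and 21.5 CPM in mutant ones. Of the 9, edgeR called 0 (1 at an unadjusted p under 0.05), DESeq2 called 1 and limma-voom 0, and their part in the level of Aqp4 was not tested. Lung epithelial RNA was low: the 9 lung markers, among them the surfactant gene Sftpc, summed to 1.66 to 2.78 CPM in control libraries and to 1.06 and 1.66 CPM in mutant ones. Of the 5 lung markers tested, 4 had a negative log2 fold change (median -0.77). For these, edgeR called 0 (2 lower at an unadjusted p under 0.05), DESeq2 called 1 lower and limma-voom 0.

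Aqp1 (ENSMUSG00000004655; listed span on chromosome 6, 55286485 to 55296791, plus strand, mm9) was by far the most abundant aquaporin. Control levels were 207.0, 263.5 and 158.5 CPM, and mutant levels were 149.5 and 146.2 CPM. The mutants agreed closely with each other, while the controls spanned 1.66-fold, and control 6 was nearer to the mutants than to control 4. The control mean was 209.6 ± 52.6 CPM (SD, n = 3) and the mutant mean 147.8 ± 2.37 CPM (SD, n = 2). The log2 fold change of -0.50 ± 0.22 (SE) did not pass at the threshold of 0.05 (adjusted p = 0.29 over all tested genes, edgeR). Leaving out control 6 gave -0.67 ± 0.12, which passed (adjusted p = 0.029, edgeR). Leaving out control 4 gave -0.31 (adjusted p = 0.30, edgeR), and over all alternatives the adjusted p lay between 0.029 and 0.62. Of the 5 fits with 1 library left out, only the one without control 6 called Aqp1, and with all 5 libraries it was not called.

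All tested markers of the endothelial and red blood cells that make Aqp1 had positive log2 fold changes, but most did not pass the test. Of all tested genes, edgeR called 6.58%, 3.02% as higher and 3.57% as lower in mutants. Of 10 endothelial markers, 2 rose, Eng and Tie1, and 8 did not pass, all 10 with a positive log2 fold change (median 0.27). Their summed level was 2023 to 2125 CPM in controls and 2375 and 2746 CPM in mutants. The 2 calls became 0 without any 1 of the controls, 1 without mutant 7 and 4 without mutant 5. At an unadjusted p under 0.05 in edgeR, 6 of the 10 endothelial markers were higher and 0 lower, and DESeq2 and limma-voom called 3 and 2 higher. The 8 erythroid markers with a value summed to 1114 to 1461 CPM in controls and 1752 and 1786 CPM in mutants, nearly all of it from globin genes. Of the 7 tested, 1 rose, Hba-a1, and 6 did not pass, and all had a positive log2 fold change (median 0.55). That count of 1 was 0 without control 2 or control 4 and 4 without control 6. At an unadjusted p under 0.05 in edgeR, 5 of the 7 erythroid markers were higher and 0 lower, and DESeq2 and limma-voom called 4 and 1 higher. Of 8 epicardial mesothelial markers, 6 fell, against 3.57% of all tested genes, and all 8 had a negative log2 fold change (median -0.56). Among those that fell were the uroplakin gene Upk3b (-0.79 ± 0.10) and the keratin gene Krt19 (-0.79 ± 0.07), and the count of falls was 6 whichever library was left out. Their sum was 1103 to 1276 CPM in controls and 764.3 and 789.7 CPM in mutants. The part of these cell types in the level of Aqp1 was not tested.

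Aqp7 (ENSMUSG00000028427; listed span on chromosome 4, 40981279 to 40992411, minus strand, mm9), the glycerol channel, was low in every library. Control counts were 58, 40 and 36, or 0.984, 0.672 and 0.585 CPM. Mutant counts were 37 and 20, or 0.474 and 0.293 CPM. The mutants lay below every control, with the gap between control 6 and mutant 5 smaller than the spread among the controls. The log2 fold change was -0.95 ± 0.39 (SE), and it did not pass (adjusted p = 0.20 in edgeR, and 0.13 to 0.53 over the alternatives). Fat cell RNA was nearly absent: of 7 adipocyte markers, Cidec and Cfd had no count in any library, and the 7 summed to 0.067 to 0.153 CPM over all libraries.

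Among the members whose promoters could be searched, only Aqp7 held the letters TNAAGTG, the core of the site that Nkx2-5 is known to bind. Both strands were searched in RefSeq promoter windows (250 bases before to 50 after the start, GRCm38.p6), in which 11.5% of 32851 windows held at least 1 match. Windows were at hand for Aqp1, Aqp7, Aqp8 and Aqp11, but not for Aqp4, whose promoter was not searched. Those of Aqp1, Aqp8 and Aqp11 held 0 matches, and of the 2 overlapping windows of Aqp7, 1 held 1 match and the other held 2. That window (chr4:41047913-41048212, minus strand, GRCm38.p6) is shown 5′ to 3′ because it holds both matches, which are in capitals.
Aqp7 promoter: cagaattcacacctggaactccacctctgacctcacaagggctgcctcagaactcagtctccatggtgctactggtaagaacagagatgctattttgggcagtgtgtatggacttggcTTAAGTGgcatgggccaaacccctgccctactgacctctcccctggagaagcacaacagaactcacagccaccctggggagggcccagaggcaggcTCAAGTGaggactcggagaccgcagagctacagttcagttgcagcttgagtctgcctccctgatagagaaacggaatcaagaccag
The matches begin 132 and 36 bases upstream of the transcript start on which this window was set. The other window of Aqp7 (chr4:41048087-41048386) was set on a different annotated start, for which these distances do not hold. A match of letters is a description of the sequence and not a bound site.

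Aqp8 (ENSMUSG00000030762; listed span on chromosome 7, 130605961 to 130610970, plus strand, mm9), a water channel best known from liver and exocrine glands, had control counts of 54, 114 and 55 and mutant counts of 57 and 63. Control levels were 0.916, 1.92 and 0.894 CPM, and mutant levels 0.730 and 0.923 CPM. Control 4 stood at 2.14 times the lowest control, and the other 4 libraries lay within a narrow range in which the groups overlapped. The log2 fold change of -0.59 ± 0.39 (SE) did not pass (adjusted p = 0.45, edgeR). Without control 4 it was -0.14 ± 0.31 (adjusted p = 0.89, edgeR), so most of the difference came with that 1 library.

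Aqp11 (ENSMUSG00000042797; listed span on chromosome 7, 104875135 to 104886497, minus strand, mm9), the intracellular member, had control counts of 91, 79 and 72 and mutant counts of 129 and 85. Control levels were 1.54, 1.33 and 1.17 CPM, and mutant levels 1.65 and 1.25 CPM. Mutant 5 was the highest library and control 6 the lowest, and the groups overlapped. The log2 fold change was 0.11 ± 0.25 (SE; adjusted p = 0.86, edgeR), and it turned to -0.11 ± 0.31 without mutant 5. The deposited table gives Aqp11 a length of 1322 bases, where GENCODE vM21 gives 9418 exonic bases. Reads in exonic sequence outside the shorter model would not be in its count.

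**Figure D2:**
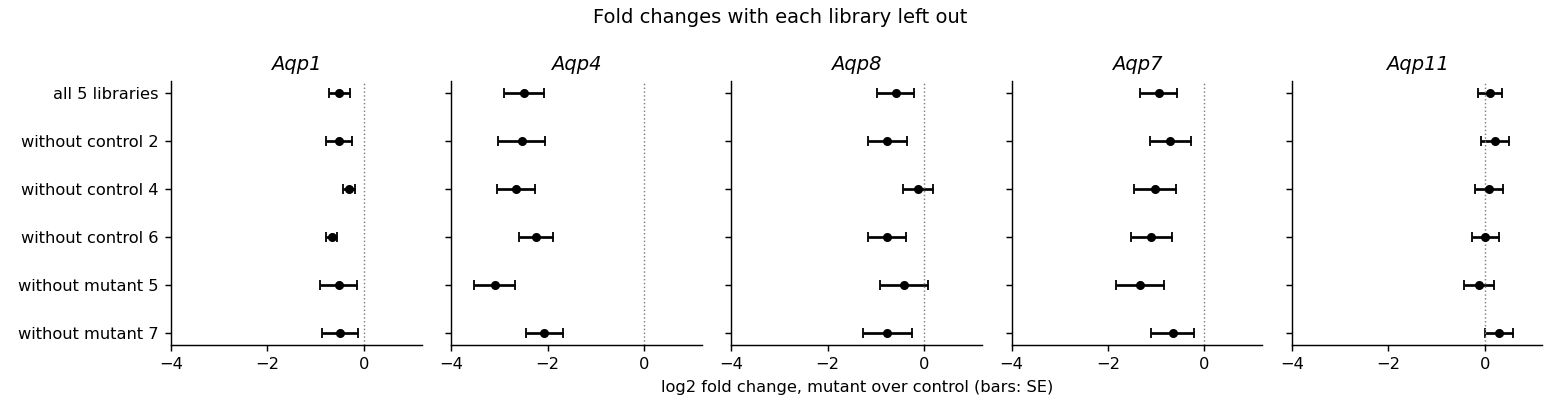
Fitted log2 fold change of mutant over control (x axis; bars are SE) for each of the 5 genes with all 5 libraries and with each library left out (rows). Aqp4 stays between -3.10 and -2.07, Aqp1, Aqp7 and Aqp8 stay below 0, and Aqp11 lies on both sides of 0.

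Outside these members, Aqp5, a classical water channel of glands and airways, had control counts of 57, 22 and 47 and mutant counts of 24 and 13. Control levels were 0.967, 0.370 and 0.764 CPM, and mutant levels 0.308 and 0.190 CPM. The groups did not overlap, but control 4 was close to mutant 5. Its log2 fold change of -1.48 ± 0.49 (SE) did not pass (adjusted p = 0.12 in edgeR, and 0.065 to 0.34 over the alternatives). The other aquaporins had few counts. Aqp3 had 3 to 11 counts per control and 3 in each mutant. Mip, Aqp2, Aqp6, Aqp9 and Aqp12 had at most 2 counts in any library, too few for a comparison.

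Leaving Aqp4 aside, 0 of the 5 other tested aquaporins passed edgeR's test, and 2 of 5, Aqp5 and Aqp7, had an unadjusted p under 0.05. DESeq2 and limma-voom also called 0 of 5, with 1 and 3 under an unadjusted p of 0.05. Of all tested genes, 6.58% passed edgeR's test in either direction, 3.57% as lower and 3.02% as higher in mutants. Of these 5 log2 fold changes 4 were negative, with a median of -0.59, where the median over all tested genes was 0.01. Groups that did not overlap were seen in Aqp1, Aqp5 and Aqp7 among these 5, and 37.9% of all tested genes had such groups. Whether Aqp4 differed from the other aquaporins in its fold change was not tested.

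Counts divided by gene length allow levels to be set side by side. On the scale of CPM per kilobase of the deposited gene length, Aqp1 had a mean level of 79.8 ± 20.0 (SD, n = 3) in controls and 56.3 ± 0.90 (SD, n = 2) in mutants. Aqp4 followed at 2.48 ± 0.71 in controls and 0.441 ± 0.215 in mutants. Aqp11 had 1.02 ± 0.14 and 1.10 ± 0.22, Aqp8 had 0.573 ± 0.269 and 0.381 ± 0.063, and Aqp7 had 0.246 ± 0.069 and 0.126 ± 0.042, each as controls (n = 3) and then mutants (n = 2). In the controls the ranges of these 5 genes did not overlap, so the order Aqp1, Aqp4, Aqp11, Aqp8 and Aqp7 held in every control. In the mutants Aqp4, at 0.593 and 0.289 CPM per kilobase, lay below Aqp11 (1.25 and 0.942) and overlapped with Aqp8 (0.337 and 0.426). On this scale Aqp4 thus ranked above Aqp11 in every control and below Aqp11 in both mutants. This swap rests on the deposited lengths, 5315 bases for Aqp4 and 1322 for Aqp11, where GENCODE vM21 gives 6233 and 9418 exonic bases. In CPM, without division by length, Aqp4 stood above Aqp11 in both mutants (3.15 and 1.54 against 1.65 and 1.25).

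**Figure D3:**
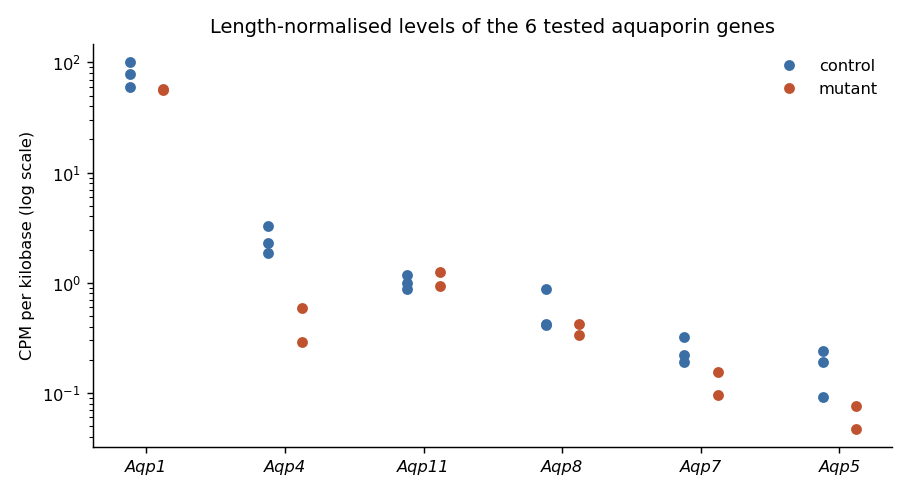
CPM per kilobase (log axis) of the 6 tested aquaporin genes, 1 point per library, controls in blue (n = 3) and mutants in red (n = 2). Aqp1 lies far above the rest, and Aqp4 lies above Aqp11 in the controls and below it in the mutants on this scale, which rests on the deposited gene lengths.

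Summed over the 12 aquaporins on this scale, the level was 84.4 ± 19.5 CPM per kilobase (SD, n = 3) in controls and 58.4 ± 1.33 (SD, n = 2) in mutants. Aqp1 made up 92.3% to 96.1% of the sum in control libraries and 95.9% and 96.8% of it in mutant ones. The share of Aqp4 was 2.77%, 1.79% and 5.00% in the controls but 0.999% and 0.503% in the mutants. The summed aquaporin level was therefore nearly that of Aqp1 alone.

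Of the 5 genes whose profile over the 5 libraries came nearest to that of Aqp4, 4 are given here: Myl3, Lrrc10 and Dpp6, the nearest in that order, and Lrrc4c, the fifth. Likeness was the root mean square difference of log2 CPM after centring each gene on its mean, and it was 0.24 for Myl3 and 0.39 for Lrrc4c. The search covered 12921 autosomal genes whose mean level lay above a floor set below that of Aqp4. Since the genes were picked for this likeness, their values are a description. Myl3 encodes a myosin light chain of ventricular and slow muscle, with control levels of 124, 67.2 and 145 CPM and mutant levels of 22.3 and 15.4 CPM. Like Aqp4, Myl3 was lowest in control 4 among the controls, highest in control 6 and lower in mutant 7 than in mutant 5. Dpp6 and Lrrc4c had the same order of libraries, so this order was not particular to Myl3. Lrrc10 was also lowest in control 4 among the controls but highest in control 2. Lrrc10, a heart muscle gene with leucine-rich repeats, had control levels of 32.5 to 44.4 CPM and mutant levels of 7.64 and 5.43 CPM. Dpp6 encodes an auxiliary subunit of potassium channels, and Lrrc4c encodes a synaptic adhesion protein. Dpp6 stood at 2.66 to 3.17 CPM in the controls and at 0.859 and 0.571 CPM in the mutants.

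**Figure D4:**
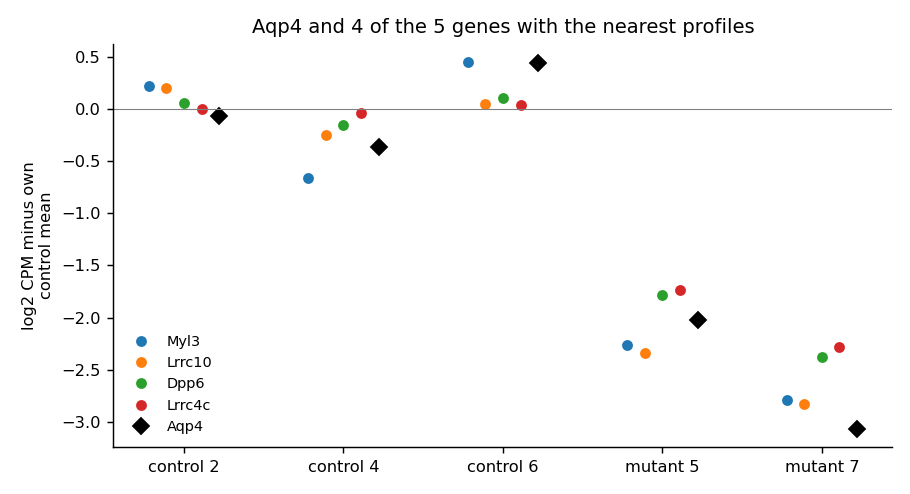
log2 CPM of Aqp4 (black diamonds) and 4 of the 5 genes with the nearest profiles (circles) in each library, minus each gene's own mean over the 3 controls. All 5 genes lie far below 0 in both mutants; Aqp4 and Myl3 spread more among the controls than the other 3.

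The dystrophin-associated complex, a membrane scaffold of muscle that holds Aqp4 in place, was examined through 14 genes of its list, all of which were tested. Of these, 1 fell, 1 rose and 12 did not pass, with a median log2 fold change of 0.10 against 0.01 over all tested genes; without mutant 5, 3 rose. Over all tested genes 3.57% fell and 3.02% rose, so that 1 of 14 in each direction stands near the background. Sntb1, which encodes beta-1-syntrophin, an adaptor of the complex, fell on the log2 scale by 0.93 ± 0.12 (SE), going from 16.1 to 20.2 CPM in the controls to 10.3 and 9.29 CPM (adjusted p = 0.004, edgeR). Dtnb, which encodes beta-dystrobrevin, rose by 0.60 ± 0.09 on the same scale, from 10.5 to 10.8 CPM to 15.8 and 16.5 CPM (adjusted p = 0.0072, edgeR). The dystrophin gene Dmd had overlapping groups, at 65.7 to 75.8 CPM and 70.4 and 69.4 CPM.

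Genes of glycerol handling, the pathway that Aqp7 serves, were counted over 14 listed genes, of which 13 were tested. Of these 2 fell, 1 rose and 10 did not pass, beside 3.57% lower and 3.02% higher over all tested genes, with a median of 0.06. Without mutant 5, 3 rose, and without any 1 of the controls, 1 fell. Lpl, the lipoprotein lipase gene, had control levels of 310.2 to 363.7 CPM and mutant levels of 233.0 and 191.3 CPM. On the log2 scale it fell by 0.70 ± 0.11 (SE; adjusted p = 0.0086, edgeR). Mgll, the monoglyceride lipase gene, fell by 0.39 ± 0.07, but leaving out any 1 of the 3 controls ended the call (adjusted p up to 0.059, edgeR). Gpd1, a glycerol phosphate dehydrogenase gene, rose by 0.64 ± 0.12, but leaving out control 2 or control 4 ended the call (adjusted p up to 0.066, edgeR). The glycerol kinase gene Gyk stood at 28.3 to 30.3 CPM and at 34.4 and 38.5 CPM, and just missed the threshold (adjusted p = 0.0502, edgeR).

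Genes of osmotic and cell volume regulation numbered 18, of which 17 were tested. Of these 3 rose, 0 fell and 14 did not pass, beside 3.02% higher and 3.57% lower over all tested genes, with a median of 0.12; without mutant 5, 5 rose. For falls, 2 genes had an unadjusted p under 0.05 in edgeR, and DESeq2 and limma-voom called 0. Slc6a6, the transporter gene of the osmolyte taurine, had control levels of 135.1, 125.4 and 133.2 CPM and mutant levels of 262.3 and 317.6 CPM. On the log2 scale it rose by 1.14 ± 0.09 (SE; adjusted p = 0.00042, edgeR) and passed whichever library was left out. Akr1b3, the aldose reductase gene that makes the osmolyte sorbitol, rose by 0.62 ± 0.08 from 63.5 to 65.3 CPM to 106.5 and 91.2 CPM. The kinase gene Sgk1 rose by 0.46 ± 0.08, but leaving out control 2 or control 4 ended the call (adjusted p up to 0.062, edgeR). Nfat5, the transcription factor that drives osmolyte genes under high tonicity, had control levels of 71.3 to 87.3 CPM and mutant levels of 64.9 and 121.6 CPM and did not pass (0.20 ± 0.30, adjusted p = 0.80, edgeR).

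**Figure D5:**
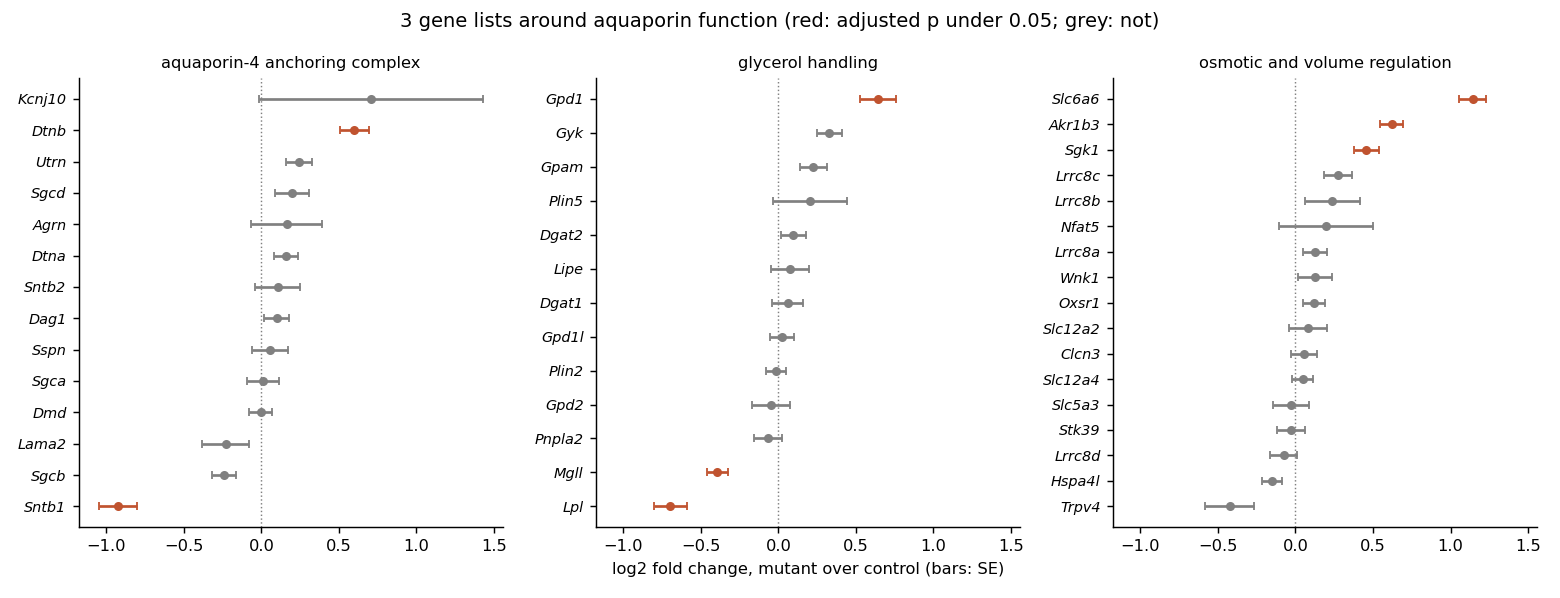
Fitted log2 fold change of mutant over control (bars are SE) for the tested genes of the 3 lists; red points passed adjusted p under 0.05 in edgeR and grey points did not. The dystrophin-associated list holds 1 fall and 1 rise, the glycerol list 2 falls and 1 rise, and the osmotic list 3 rises.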

How the data were processed

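The deposited table holds raw counts by gene for each library, which the authors left unnormalized, RPKM values pooled to 1 value per group, and their log2 ratio and p-values of mutant against control; their p-values were not used. Per the labels' protocols, libraries were made from 250 ng of total RNA with a TruSeq kit. Per the submitters' processing notes, reads were handled with TopHat2 2.0.4, HTSeq 0.5.4p3 and DESeq on mm9. The counts' strand setting was not given in the sources used here. The entries no_feature (3.97% to 6.03% of all counts) and ambiguous (2.31% to 3.18%) were left out.

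The count model was edgeR 4.0.16 under R 4.3.3: filterByExpr (minimum count 10, minimum total 15), TMM, robust quasi-likelihood test, two-sided, Benjamini-Hochberg over 17835 genes, threshold 0.05, prior count 0.125. SE is the log2 fold change over root F. CPM uses the TMM-scaled totals, and CPM per kilobase the deposited gene length, from which the deposited RPKM follow. An exact permutation test of 2 against 3 libraries cannot go below p = 0.1. The fit was tested on simulated data in which spread followed mean level alone, so that test does not cover genes of unusual spread. Listed spans of the 12 aquaporins have the length of the coding span. Where a symbol stood on several rows (Wnk1), the row whose identifier carries that symbol in GENCODE vM21 was used. Alternatives were other scalings and filters, DESeq2 1.42.0, limma-voom (limma 3.58.1) and each library left out. Named genes were the 5 members, other aquaporins with counts, up to 3 called genes per list, and the 5 profiles nearest to Aqp4; Dmd, Gyk, Nfat5 and the marker genes were chosen after their values were seen. Some genes that these rules name or list are not reported here. The members and lists were chosen with earlier results of these data known.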

Additional observations from a re-analysis of the deposited data

How the results depend on the processing

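No paired analysis was possible because the labels give no pairing of control with mutant libraries. The groups share no replicate number, but these numbers alone do not show whether libraries were related. The negative direction of Aqp1, Aqp4, Aqp7 and Aqp8 was kept in each alternative that gave a value; when genes needed 1 CPM or more in 2 libraries, Aqp7, Aqp8 and Aqp5 were not tested, which left 3 aquaporins, and without a filter 12 were tested. With 1 library left out, the log2 fold change ranged from -3.10 to -2.07 for Aqp4, from -0.67 to -0.31 for Aqp1, from -1.34 to -0.66 for Aqp7, from -0.77 to -0.14 for Aqp8 and from -0.11 to 0.29 for Aqp11, which reversed (-0.114) without mutant 5. Aqp1 passed only without control 6 (-0.668, adjusted p = 0.029, edgeR). Counts over all genes moved from 538 higher and 636 lower to 960 and 1044 with DESeq2, and ranged from 203 to 910 higher and from 306 to 804 lower with 1 library left out. Without any 1 library, the calls ranged from 0 to 1 lower for the aquaporins other than Aqp4, from 1 to 3 higher for the dystrophin-associated list, from 0 to 3 higher and 1 to 2 lower for the glycerol list, and from 2 to 5 higher for the osmotic list. The causes were not tested. Where 1 library is left out of the mutants, the lone mutant is assumed to vary like the controls. Counts of 13 to 129 per library limit the precision for Aqp5, Aqp7, Aqp8 and Aqp11.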
